A study of Homo sapiens with 14 samples.

Results

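The genes described are 10 regulators of the passage from G1 into S phase in Jurkat cells, a human T-cell acute lymphoblastic leukaemia line. They were taken by symbol from a deposited table of 61541 genes, and were chosen with earlier results of these data known. They are the cyclins *CCND2*, *CCND3* and *CCNE1*, the cyclin-dependent kinases *CDK2*, *CDK4* and *CDK6*, and the kinase inhibitors *CDKN1B* and *CDKN2C*. The retinoblastoma gene *RB1* and the transcription factor gene *E2F1* complete the set. All 10 were found, and all 10 were among the 18963 genes with enough counts to be tested. The study set 14 libraries of polyadenylated RNA in 5 groups. Cells exposed to APS-2-79, a small-molecule inhibitor of the KSR scaffold proteins (KSRi, n = 3), were set against cells exposed to the solvent DMSO (n = 3). Cells with guide 1 (n = 3) or guide 2 (n = 3) against *KSR2*, a scaffold protein gene of the RAS to ERK pathway, were set against cells with a non-targeting guide (NT, n = 2). The labels name the guide groups as CRISPR knockouts in their titles, as CRISPRi in the design text and, for NT, as a hairpin control in the library names, so the groups are called by guide here. The labels speak of transduced cells without saying which groups that covers, and no dose, exposure time, guide sequence, selection or clonality is stated in them. Nothing in the labels says that the replicates were separate cultures, so the p-values measure the spread between these libraries, which may be technical.

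In G1, D-type cyclins bind the kinases CDK4 and CDK6 and start the phosphorylation of the retinoblastoma protein. Cyclin E with CDK2 continues it, E2F factors are released, and genes of DNA replication are transcribed. Inhibitors of the INK4 family, such as the product of *CDKN2C*, hold CDK4 and CDK6, while the product of *CDKN1B*, p27, holds cyclin E with CDK2. In mice, cyclin D3 is needed for the expansion of immature thymocytes, and CDK6 is a main partner of D-type cyclins in the T lineage.

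Library totals were 21710466 to 45897075 counts with KSRi, 27099107 to 43027877 with DMSO, 33919545 to 38801454 with guide 1, 29979565 to 42717502 with guide 2 and 25794010 to 34535929 with NT. Levels are counts relative to the library total, in the usual unit CPM, after scaling of the libraries by trimmed means (TMM). Changes are on the log2 scale with their standard error (SE), and a call is a Benjamini-Hochberg adjusted p under 0.05 over all tested genes in edgeR's quasi-likelihood test. The target *KSR2* stood at 0.452 to 0.664 CPM with guide 1 and 0.730 to 0.822 CPM with guide 2, against 28.97 to 30.08 CPM with NT, so the guide labels held. Genes of a T-cell list (*CD3D*, *CD3E*, *CD3G*, *CD28*, *LCK*, *CD2*, *CD5* and *TAL1*) were present (8 of 8 tested, summed level 1893 to 2489 CPM with KSRi, 1945 to 1986 CPM with DMSO, 1745 to 2040 CPM with guide 1, 1890 to 2028 CPM with guide 2 and 1899 to 1984 CPM with NT). The sums hide changes of single genes: relative to DMSO, 4 were higher and 2 lower with NT (34.6% and 31.2% of all tested genes). With KSRi 3 were higher and 0 lower (22% and 18.7%). Of 4 B-cell markers *CD79A* alone had enough counts to be tested, at 22.9 to 25.0 CPM with KSRi and 21.8 to 23.0 CPM with DMSO, and at 43.4 to 59.2 CPM with guide 1, 45.8 to 56.4 CPM with guide 2 and 46.8 to 67.9 CPM with NT. Myeloid, erythroid and epithelial marker lists summed to at most 0.838, 0.0362 and 0.714 CPM in any library. In bulk RNA a shift of cells between phases of the cycle and a change of RNA per cell cannot be told apart. The chi-square per degree of freedom between replicates was 17.2 to 49.9 with KSRi and 5.83 to 7.78 with DMSO. It was 7.53 to 13.9 with guide 1, 9.29 to 26.0 with guide 2 and 9.85 with NT. Among the KSRi libraries, replicate 1 gave 35.95 with replicate 2 and 49.94 with replicate 3, while replicates 2 and 3 gave 17.24. The mitochondrial share of counts was 1.12 to 2.51% with KSRi and 1.27 to 1.45% with DMSO, and 1.76 to 2.37% with guide 1, 1.15 to 2.71% with guide 2 and 1.85 to 2.5% with NT.

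Per exon length the 10 genes spanned a wide range, and with KSRi and DMSO the kinase partners of the D cyclins were the most abundant. Dividing CPM by kilobases of annotated exon gave 117 ± 17 for *CDK6* with KSRi and 164 ± 4.99 with DMSO (SD, n = 3 each), the highest level per kilobase in every group. With KSRi it was followed by *CDK4* (77.1 ± 14.9) and *RB1* (65.0 ± 4.83), whose libraries overlapped, then by *CDK2* (47.0 ± 5.79), *CDKN1B* (41.7 ± 1.04), *E2F1* (40.4 ± 3.31), *CCND3* (37.4 ± 6.91) and *CDKN2C* (33.0 ± 3.65), each overlapping the next, and then by *CCNE1* (4.92 ± 1.2) and *CCND2* (0.505 ± 0.0579). In DMSO the order was *CDK6*, *CDK4* (97.5 ± 3.27), *RB1* (75.8 ± 3.18), *CDK2* (46.6 ± 2.89), *CCND3* (45.6 ± 2.65), *CDKN1B* (33.4 ± 1.71), *E2F1* (31.2 ± 1.66), *CDKN2C* (26.6 ± 0.485), *CCNE1* (5.6 ± 0.567) and *CCND2* (0.356 ± 0.056), all in CPM per kilobase. *CDK2* and *CCND3* overlapped between libraries in that order, as did *CDKN1B* and *E2F1*, and the other neighbours did not. *CCND3* was therefore the main D cyclin transcript: *CCND2* reached at most 6.99 CPM and *CCND1* at most 0.244 CPM (1 to 9 counts a library). With the guides and NT *CDKN1B* came next after *CDK6*, followed by *RB1*, with *CDK4* below both. *CDKN1B* averaged 79.3 ± 1.1 CPM per kilobase with guide 1 and 80.8 ± 2.36 with guide 2 (SD, n = 3 each), against 84.3 ± 3.65 with NT (n = 2). *CDK4* averaged 41.5 ± 0.238 CPM per kilobase with guide 1 and 41.6 ± 0.679 with guide 2, against 44.0 ± 1.45 with NT. Its libraries overlapped those of *CCND3* in all 3 of these groups. The lengths are of all annotated exons, and which of them Jurkat cells use was not measured.

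**Figure D1:**
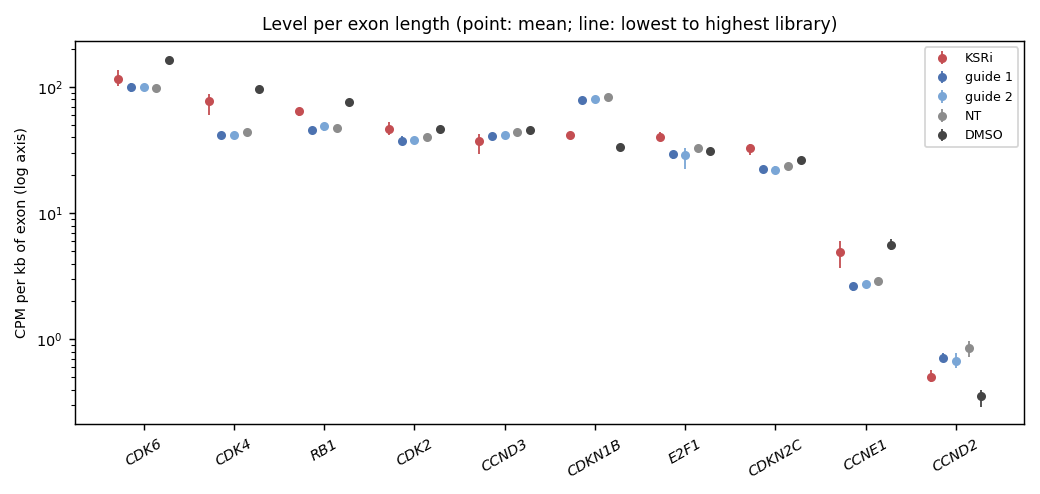
Level of each gene in CPM per kilobase of annotated exon (log axis), with points for the group mean and lines for the lowest to the highest library, for KSRi, guide 1, guide 2, NT and DMSO. *CDK6* is highest in every group and *CCND2* lowest (117 and 0.505 with KSRi, 164 and 0.356 with DMSO), while *CDKN1B* sits at 79.3 with guide 1, 80.8 with guide 2 and 84.3 with NT, against 41.7 with KSRi and 33.4 with DMSO.

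The stretches of 250 bases upstream of the RefSeq start are shown for 3 genes that passed the test with the inhibitor and had 1 RefSeq entry near their annotated start, to show the motifs near their starts. Of the 10 genes, 4 had 1 entry within 5000 bases of the start (*CCNE1*, *CDK4*, *CDKN1B*, *E2F1*), *RB1* had 1 entry farther away, *CCND3*, *CDK6* and *CDKN2C* had several, and *CCND2* and *CDK2* are named only. The RefSeq starts of *CDK4* and *CDKN1B* lie 3703 and 2310 bases inside the genes as GENCODE annotates them, so their stretches fall within the annotated gene spans, while that of *E2F1* lies 19 bases from its annotated start. Sequences are from RefSeq (GRCh38.p14), written 5′ to 3′ on the gene's strand. In *CDK4* (chr12:57752311-57752560, minus strand) the capitals mark the E-box CACGTG, the site that MYC with MAX can bind. In *CDKN1B* (chr12:12717118-12717367, plus strand) they mark the CCAAT box, which NF-Y can bind. In *E2F1* (chr20:33686386-33686635, minus strand) they mark E2F motifs, searched as TTTCCCGC, TTTCGCGC, TTTGCCGC and TTTGGCGC.
CDK4: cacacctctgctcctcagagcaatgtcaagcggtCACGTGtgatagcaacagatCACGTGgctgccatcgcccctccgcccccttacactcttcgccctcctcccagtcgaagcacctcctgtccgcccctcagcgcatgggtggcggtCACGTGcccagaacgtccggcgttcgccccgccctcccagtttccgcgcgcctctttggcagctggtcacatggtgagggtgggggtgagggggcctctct
CDKN1B: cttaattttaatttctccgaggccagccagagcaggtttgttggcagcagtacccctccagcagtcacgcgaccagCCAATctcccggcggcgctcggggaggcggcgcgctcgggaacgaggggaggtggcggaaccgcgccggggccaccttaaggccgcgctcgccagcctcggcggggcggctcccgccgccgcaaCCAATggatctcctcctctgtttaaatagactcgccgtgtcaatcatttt
E2F1: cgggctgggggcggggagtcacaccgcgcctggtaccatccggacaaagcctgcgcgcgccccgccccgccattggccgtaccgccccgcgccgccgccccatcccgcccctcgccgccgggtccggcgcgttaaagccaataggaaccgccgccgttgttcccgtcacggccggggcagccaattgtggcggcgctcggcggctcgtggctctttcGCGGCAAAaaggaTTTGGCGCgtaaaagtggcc
Both strands were searched, and no matches of different motifs overlapped. *CDK4* held 3 E-boxes, against 6.34% of 35116 promoter stretches of this length with at least 1. *E2F1* held 2 E2F motifs, 33 to 26 and 20 to 13 bases before the start, against 2.79% of stretches with at least 1. *CDKN1B* and *E2F1* held CCAAT (32% of stretches), all 4 genes held the GC box GGGCGG (42.6%), and none of the 4 held the FOXO motif TGTTTAC (2.98%) or the CHR motif TTTGAA (13.3%). A match says only that these letters occur in the stretch.

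KSRi was set against DMSO to find the genes that responded to the inhibitor. Of the 10 genes, 4 rose (*CCND2*, *CDKN1B*, *CDKN2C*, *E2F1*), 4 fell (*CCND3*, *CDK4*, *CDK6*, *RB1*) and 2 did not pass (*CCNE1*, *CDK2*), where 40.7% of all tested genes were called, 22% higher and 18.7% lower. The changes were small, from −0.49 to 0.51, with a median of −0.09 for the 10 genes and 0.02 for all tested genes. Both inhibitor genes were higher, and both kinase partners of the D cyclins were lower. In all 8 called genes the KSRi and DMSO libraries did not overlap. How often that held among all tested genes was not computed, so it adds no separate support to the calls. The calls of *CDK4*, *CDK6*, *CDKN1B* and *CDKN2C* held under all 11 alternatives run, and those of *CCND2*, *CCND3*, *RB1* and *E2F1* did not.

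**Figure D2:**
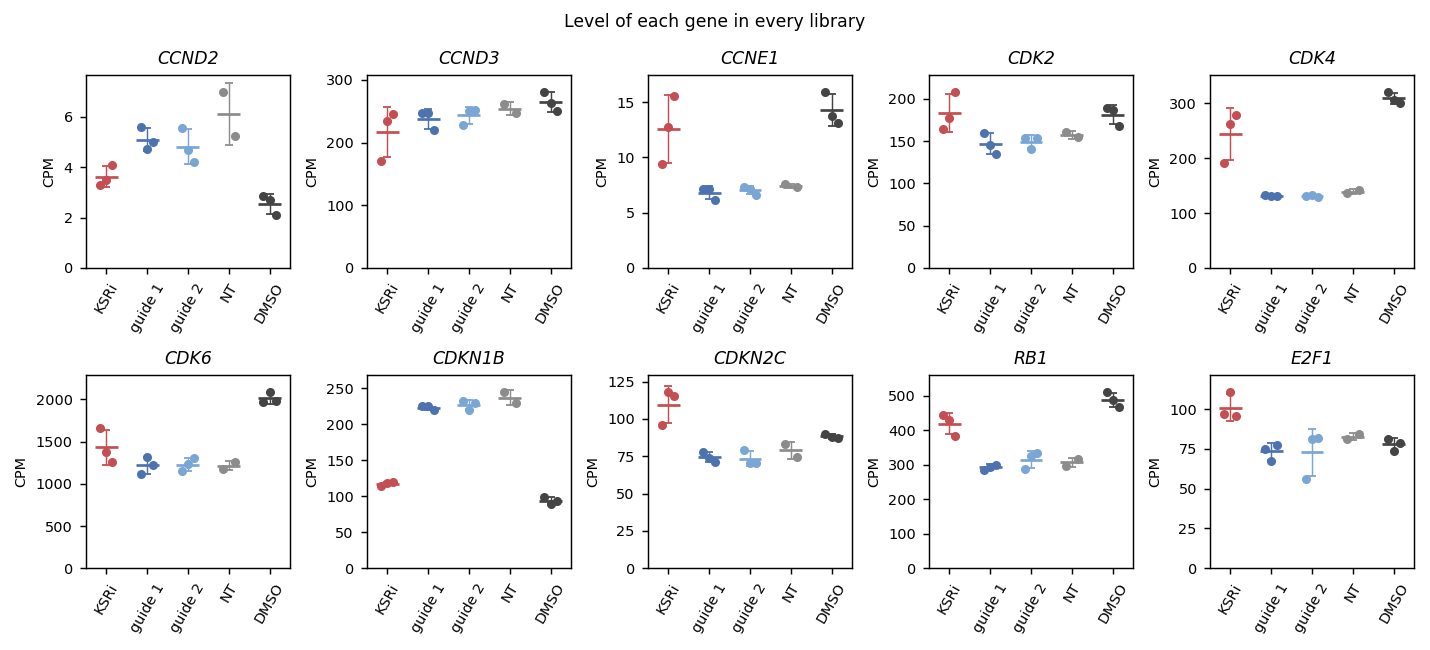
Level of each of the 10 genes in CPM in every library, 1 point a library, with the mean (bar) and SD (whisker) of each group, for KSRi, guide 1, guide 2, NT and DMSO. KSRi sits below DMSO for *CDK6* (1256 to 1663 and 1972 to 2083 CPM) and above it for *CDKN1B* (114 to 119 and 89.2 to 98.8 CPM), while guide 1, guide 2 and NT lie close together in most panels.

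Among the D cyclins and their kinases, *CDK6* (ENSG00000105810; GRCh38 chromosome 7, 92604921 to 92836594) fell most. It stood at 1663, 1380 and 1256 CPM in the KSRi libraries, against 1972, 2083 and 1983 CPM in the DMSO libraries, a log2 change of −0.49 (SE 0.10, edgeR adjusted p = 0.000678), or 1.40-fold lower. Every KSRi library lay below every DMSO library. *CDK4* (ENSG00000135446; chromosome 12, 57747727 to 57756013), the other kinase of the D cyclins, stood at 191, 263 and 280 CPM with KSRi, against 321, 306 and 301 CPM with DMSO. It changed by −0.34 on the log2 scale (SE 0.10, edgeR adjusted p = 0.0116), and KSRi replicate 1 was far below the other KSRi libraries. Without that library the change was −0.19 (edgeR adjusted p = 0.0105, 0.000117 to 0.045 over all alternatives). Of the annotated exons of *CDK4*, 43.2% are also exons of *TSPAN31* on the opposite strand. *TSPAN31* itself had a median of 1 count a library, against 5495 for *CDK4*, and without a stated strand setting reads of the shared part cannot be told apart.

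The D cyclin transcripts went opposite ways. *CCND3* (ENSG00000112576; chromosome 6, 41934933 to 42050357) stood at 171, 235 and 245 CPM with KSRi, against 280, 263 and 250 CPM with DMSO. This was a log2 change of −0.29 (SE 0.10, adjusted p by edgeR 0.038), and as for *CDK4* the lowest value was that of KSRi replicate 1. Without KSRi replicate 1 the change was −0.14 (edgeR adjusted p = 0.119), and the call was also lost without DMSO replicate 1 (−0.24, adjusted p = 0.124) or DMSO replicate 2 (−0.29, adjusted p = 0.0758), with a range of 0.00129 to 0.124 over all alternatives. *CCND2* (ENSG00000118971; chromosome 12, 4273772 to 4305350), the scarce D cyclin transcript, stood at 3.29, 3.48 and 4.08 CPM with KSRi, against 2.85, 2.71 and 2.10 CPM with DMSO, which is 68 to 138 counts a library. This was a rise of 0.51 on the log2 scale (SE 0.17, edgeR adjusted p = 0.0242), from the lowest counts of the 10 genes. The call was lost without DMSO replicate 3 (0.36, edgeR adjusted p = 0.14), KSRi replicate 2 (0.53, adjusted p = 0.0515) or KSRi replicate 3 (0.43, adjusted p = 0.0719), in a range of 0.0125 to 0.14 over all alternatives.

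Transcripts of the kinase inhibitors were higher with KSRi. *CDKN1B* (ENSG00000111276; chromosome 12, 12715058 to 12722371), which encodes p27, stood at 114, 119 and 119 CPM with KSRi, against 98.8, 89.2 and 93.3 CPM with DMSO. The log2 change was 0.32 (SE 0.06, edgeR adjusted p = 0.000457), or 1.25-fold, and the 3 KSRi libraries lay close together. *CDKN2C* (ENSG00000123080; chromosome 1, 50960745 to 50974633), which encodes the INK4 inhibitor p18, stood at 95.7, 118 and 115 CPM with KSRi, against 90.2, 87.7 and 87.1 CPM with DMSO. It rose by 0.31 on the log2 scale (SE 0.08, edgeR adjusted p = 0.00562), and KSRi replicate 1 was the KSRi library nearest to DMSO.

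Transcripts of the retinoblastoma protein and of the E2F factor E2F1 also went opposite ways. *RB1* (ENSG00000139687; chromosome 13, 48303726 to 48599436), whose protein restrains E2F factors, stood at 443, 430 and 384 CPM with KSRi, against 510, 488 and 469 CPM with DMSO. The log2 change was −0.22 (SE 0.07, edgeR adjusted p = 0.0236). The call was lost without DMSO replicate 1 (−0.19, edgeR adjusted p = 0.0888), DMSO replicate 2 (−0.23, adjusted p = 0.055) or KSRi replicate 3 (−0.16, adjusted p = 0.102), in a range of 0.00659 to 0.102 over all alternatives. *E2F1* (ENSG00000101412; chromosome 20, 33675683 to 33686404), which switches on replication genes, stood at 96.9, 110 and 95.5 CPM with KSRi, against 81.5, 73.5 and 79.0 CPM with DMSO. It rose by 0.37 on the log2 scale (SE 0.11, edgeR adjusted p = 0.0147), or 1.30-fold. The call was lost without DMSO replicate 2 (0.33, edgeR adjusted p = 0.0623) or KSRi replicate 2 (0.30, adjusted p = 0.0749), in a range of 0.000416 to 0.0749 over all alternatives.

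Cyclin E and its kinase did not pass the test. *CCNE1* (ENSG00000105173; chromosome 19, 29811898 to 29824308) stood at 9.40, 12.7 and 15.5 CPM with KSRi, against 15.9, 13.8 and 13.2 CPM with DMSO (log2 change −0.20, SE 0.13, edgeR adjusted p = 0.26). The KSRi libraries spread more widely than the DMSO libraries and overlapped them, and the 95% interval of the change was −0.48 to 0.09. Without KSRi replicate 3 the change was −0.35 and passed (edgeR adjusted p = 0.0336, 0.0336 to 0.863 over all alternatives). *CDK2* (ENSG00000123374; chromosome 12, 55966769 to 55972784) stood at 164, 177 and 208 CPM with KSRi, against 189, 186 and 168 CPM with DMSO. The groups differed by 0.01 on the log2 scale (SE 0.09, edgeR adjusted p = 0.921), with a 95% interval of −0.17 to 0.20.

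Ratios of counts between genes of the same library do not depend on the scaling of the libraries. The ratio of *E2F1* to *RB1* counts was 0.219, 0.257 and 0.249 with KSRi, against 0.160, 0.151 and 0.168 with DMSO. The ratio of *CDKN2C* to its binding partner *CDK6* was 0.0575, 0.0853 and 0.0919 with KSRi, against 0.0457, 0.0421 and 0.0439 with DMSO. The ratio of *CDKN1B* to *CDK2* was 0.695, 0.671 and 0.572 with KSRi, against 0.523, 0.478 and 0.554 with DMSO. In these 3 ratios, and in that of *CCND2* to *CCND3* (0.0148 to 0.0192 with KSRi and 0.00839 to 0.0103 with DMSO), every KSRi library lay above every DMSO library. They set genes that rose with KSRi over genes that fell or did not pass, so they add no separate evidence. The guide and NT libraries also lay above every DMSO library in each of them. With NT they were 0.272 and 0.267, 0.0707 and 0.0596, 1.52 and 1.49, and 0.0267 and 0.0212, in the same order. The ratio of *CDK6* to *CDK4* was 8.71, 5.25 and 4.49 with KSRi, against 6.15, 6.81 and 6.60 with DMSO. These values overlapped, and the highest was that of KSRi replicate 1. Ratios of *CCNE1* to *CCND3* overlapped as well (0.0543 to 0.0634 with KSRi and 0.0524 to 0.0568 with DMSO). Each ratio is a description of 3 libraries against 3, for which the smallest two-sided p of an exact permutation test is 0.1.

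The other transcripts of the same regulatory families included more inhibitors that rose. Of 9 further G1 cyclins, kinases and inhibitors, 5 were tested, of which 3 rose and 2 fell, where 22% of all tested genes rose and 18.7% fell (median log2 change 0.71, against 0.02 for all tested genes). *CDKN1A*, the p21 inhibitor gene, stood at 4.42 ± 0.949 CPM with KSRi and 1.90 ± 0.156 CPM with DMSO (SD, n = 3 each; log2 change 1.20, SE 0.15, edgeR adjusted p = 1.42e-05). *CDKN2D*, which encodes the INK4 inhibitor p19, rose by 0.77 (SE 0.17, edgeR adjusted p = 0.00145), and *CDKN1C*, which encodes p57, rose by 0.71 (SE 0.20, edgeR adjusted p = 0.0174) at a level under 1 CPM. *CCNE2*, the second cyclin E gene, fell by 0.46 on the log2 scale (SE 0.08, edgeR adjusted p = 0.000216), and *CCNA2*, the S-phase cyclin A gene, fell by 0.26 (SE 0.06, edgeR adjusted p = 0.00299). *CCND1*, *CDK3*, *CDKN2A* and *CDKN2B* had too few counts to be tested. *CDKN2A* and *CDKN2B*, which are known to be deleted in Jurkat cells, had 0 counts in all 14 libraries, where 3 counts would be 0.0658 to 0.161 CPM.

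Among pocket proteins and E2F factors other than *RB1* and *E2F1*, 5 of 11 tested fell and 0 rose (median −0.18). Called genes in either direction were 5 of 11, a share near the 40.7% of all tested genes. By direction, 18.7% of all tested genes fell and 22% rose. The fallen genes were *E2F5* (−0.63, SE 0.08), *E2F7* (−0.50, SE 0.07), *RBL1*, the p107 gene (−0.39, SE 0.09), *E2F4* (−0.36, SE 0.06) and *E2F3* (−0.21, SE 0.06). *E2F1* thus moved the other way from the 4 family members that passed, and *E2F2* stood at 0.25 (SE 0.10, edgeR adjusted p = 0.0532). By edgeR the count at an unadjusted p under 0.05 was 7 of 11, against 48.8% of all tested genes. Without KSRi replicate 1 or without the low-count filter 1 gene of this list was called higher. Of 13 tested genes for activation and turnover of G1 kinases, 5 fell and 1 rose (median −0.09). Calls in either direction were again near the share of all tested genes, of which 18.7% fell and 22% rose. *SKP2*, the F-box protein that marks p27 for destruction, fell by 0.46 (SE 0.07, edgeR adjusted p = 4.61e-05), at 169 ± 7.04 CPM with KSRi and 232 ± 11.7 CPM with DMSO. *WEE1*, *CCNH*, *CDC25A*, the phosphatase that activates CDK2, and *SKP1* fell by 0.43, 0.31, 0.31 and 0.20 on the log2 scale. The number that fell was 3 without DMSO replicate 1, DMSO replicate 2 or KSRi replicate 2, and the number that rose was 2 without KSRi replicate 1 and 0 without DMSO replicate 2 or 3 or KSRi replicate 2 or 3.

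Of 18 tested E2F target genes of the G1/S boundary, 5 fell, 1 rose and 12 did not pass (median −0.05). In either direction the share of calls was near the 40.7% among all tested genes, of which 18.7% fell and 22% rose. *POLA1*, the catalytic subunit of DNA polymerase alpha, changed by −0.47 (SE 0.07), *UHRF1* by −0.35 (SE 0.08), and the helicase subunits *MCM6* and *MCM4* by −0.29 each (SE 0.07 and 0.08). The replication licensing factor *CDT1* rose by 0.61 (SE 0.09, edgeR adjusted p = 6.97e-05), at 168 ± 21.4 CPM with KSRi and 110 ± 0.854 CPM with DMSO. Without KSRi replicate 1 the number that rose was 4, and without DMSO replicate 3 the number that fell was 3. Of 10 transcription factors known to act on D cyclin or p27 genes, 4 rose and 2 fell (median 0.17), where 22% of all tested genes rose and 18.7% fell. *MYC* stood at 407 ± 33 CPM with KSRi and 568 ± 17.8 CPM with DMSO (log2 change −0.48, SE 0.07, edgeR adjusted p = 2.9e-05), and *NOTCH1* changed by −0.35 (SE 0.08). *FOXO4* (0.50, SE 0.10), the quiescence factor *KLF2* (0.47, SE 0.10) and *FOXO1* (0.46, SE 0.11) rose. What these transcripts did to the 10 genes was not tested.

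**Figure D3:**
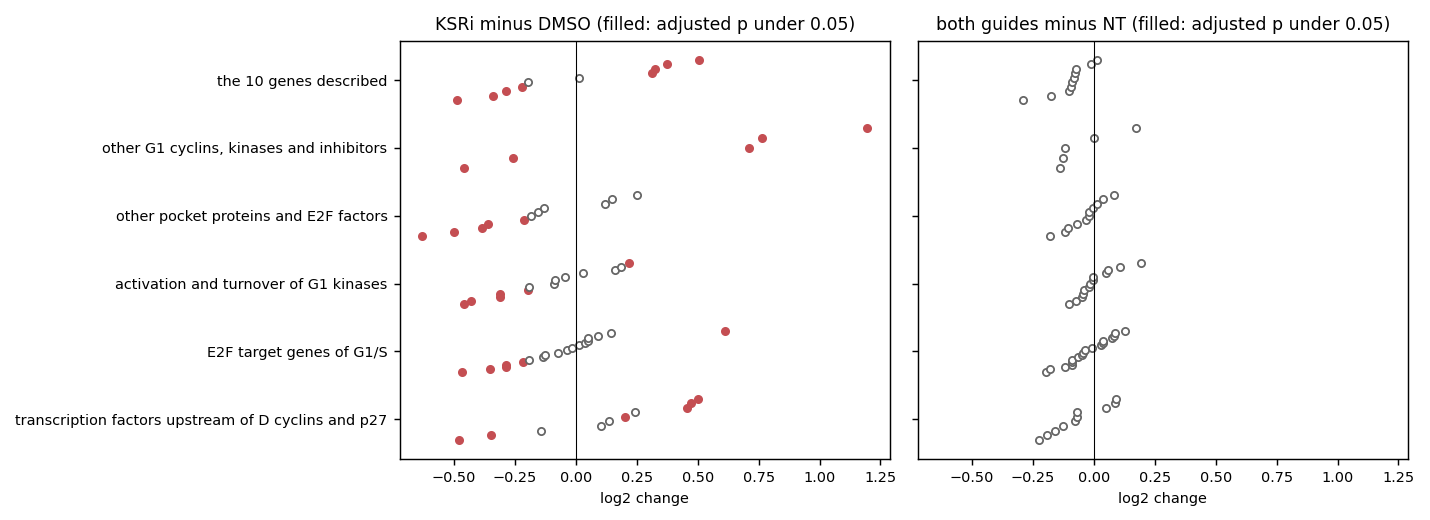
Log2 change of each tested gene of the 10 and of 5 further lists, with KSRi minus DMSO on the left and both guides minus NT on the right, filled where the adjusted p was under 0.05. With KSRi filled points lie on both sides of 0 in most lists, while with both guides no point is filled and all lie between −0.29 and 0.20.

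Each guide was set against NT to see whether loss of the *KSR2* transcript moved the G1 genes. With the guides 0 of the 10 passed the test in either direction, where edgeR called 0.00527% of all tested genes with guide 1, 0.0105% with guide 2 and 0.0158% with the mean of both. DESeq2 also called 0 of the 10 in each of these. At an unadjusted p under 0.05 there were 0 of 10 for guide 1, 1 for guide 2 and 1 for both guides, in each case *CCND2*. Among all tested genes the shares under that threshold were 4.64% for guide 1, 3.6% for guide 2 and 4.16% for both guides. *CCND2* stood at 5.59, 4.71 and 5.00 CPM with guide 1 and 5.57, 4.67 and 4.22 CPM with guide 2, against 6.99 and 5.24 CPM with NT. The guide libraries overlapped NT replicate 2 and lay below NT replicate 1 (log2 change for both guides −0.29, SE 0.14, edgeR adjusted p = 0.989).

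For the other 9 genes the change with both guides lay between −0.18 and 0.01. *CDK6* stood at 1116, 1321 and 1225 CPM with guide 1 and 1147, 1237 and 1303 CPM with guide 2, against 1175 and 1253 CPM with NT (log2 change for both guides 0.01, 95% interval −0.19 to 0.21). *CDKN1B* stood at 225, 225 and 219 CPM with guide 1 and 232, 220 and 229 CPM with guide 2, against 244 and 230 CPM with NT (−0.07, 95% interval −0.20 to 0.05). *CDK4* ranged from 131 to 132 CPM with guide 1 and from 130 to 134 CPM with guide 2, against 136 to 143 CPM with NT. This was the 1 gene of the 10 in which all guide libraries lay on the same side of NT, and its change of −0.08 (SE 0.10) did not pass (edgeR adjusted p = 0.989). NT has 2 libraries, and the share of all tested genes separated in this way was not computed, so nothing is read from it. *E2F1* stood at 75.1, 67.5 and 77.5 CPM with guide 1 and 55.8, 81.0 and 81.9 CPM with guide 2, against 81.0 and 84.5 CPM with NT, so that guide 2 replicate 1 was far below the rest. Changes of *CCND3* (−0.08, SE 0.10), *CCNE1* (−0.10, SE 0.14), *CDK2* (−0.09, SE 0.09), *CDKN2C* (−0.10, SE 0.08) and *RB1* (−0.01, SE 0.07) had intervals that included 0. Over the 10 genes the 95% intervals for both guides ran from −0.59 to 0.22, so a log2 change of 1 in either direction lay outside all of them. In the 5 further lists edgeR and DESeq2 called 0 genes for both guides. At an unadjusted p under 0.05, 3 of the lists had 1 gene each and the rest had 0, against 4.16% of all tested genes.

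The guides were then set against each other. With guide 2 relative to guide 1, 0 of the 10 genes passed by edgeR or DESeq2, where edgeR called 0.00527% of all tested genes. At an unadjusted p under 0.05 there were 0 of the 10, against 3.24% of all tested genes. The log2 differences ran from −0.09 for *CCND2* to 0.10 for *RB1*, and their 95% intervals from −0.39 to 0.34.

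**Figure D4:**
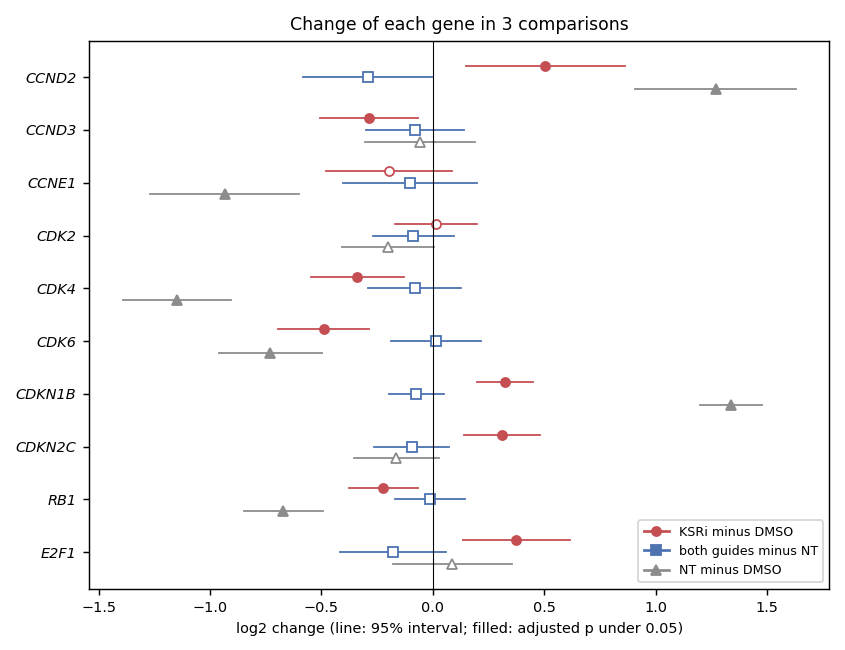
Log2 change of each gene with its 95% interval for KSRi minus DMSO, both guides minus NT and NT minus DMSO, filled where the adjusted p was under 0.05. The inhibitor moved 8 genes by at most 0.51 in size and no guide point is filled, while NT minus DMSO reaches 1.34 for *CDKN1B* and −1.15 for *CDK4*.

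Whether the inhibitor and the guides differed in effect was tested directly, as the KSRi minus DMSO change less the change of both guides minus NT. Of the 10 genes 5 differed, where 28.6% of all tested genes did. The change was higher with the inhibitor than with the guides for *CCND2* (difference 0.80, SE 0.22, edgeR adjusted p = 0.0122), *E2F1* (0.55, SE 0.16, adjusted p = 0.0165), *CDKN2C* (0.41, SE 0.11, adjusted p = 0.0138) and *CDKN1B* (0.40, SE 0.08, adjusted p = 0.00234). It was lower for *CDK6* (−0.50, SE 0.14, adjusted p = 0.0116). These are differences between changes, not between levels. *CDK4* (−0.26, SE 0.14), *CCND3* (−0.21, SE 0.15), *RB1* (−0.21, SE 0.11), *CCNE1* (−0.09, SE 0.20) and *CDK2* (0.10, SE 0.12) did not pass. Without NT replicate 1 the number higher was 2 and the number lower 0, since the calls of *CCND2* (0.59, edgeR adjusted p = 0.0961, 0.00198 to 0.0961 over all alternatives), *CDKN2C* (0.33, 0.104, range 0.00025 to 0.104) and *CDK6* (−0.46, 0.0692, range 2.67e-05 to 0.0692) were lost. *E2F1* lost its call without NT replicate 2 (0.52, edgeR adjusted p = 0.0666, range 0.000269 to 0.0666), and without KSRi replicate 3 *CDK4* also passed (−0.36, adjusted p = 0.0476, range 0.0476 to 0.402). The inhibitor and guide experiments had different controls, so whatever else set them apart enters this difference.

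The control groups also differed from each other in the G1 genes. Relative to DMSO, NT had 2 of the 10 genes higher and 4 lower, where 65.8% of all tested genes were called, 34.6% higher and 31.2% lower. *CDKN1B* stood at 244 and 230 CPM with NT, against 98.8, 89.2 and 93.3 CPM with DMSO (log2 difference 1.34, SE 0.07, edgeR adjusted p = 3.54e-11), or 2.53-fold higher. *CCND2* stood at 6.99 and 5.24 CPM with NT, against 2.85, 2.71 and 2.10 CPM with DMSO (1.27, SE 0.17, edgeR adjusted p = 5.33e-06). *CDK4* stood at 136 and 143 CPM with NT, against 321, 306 and 301 CPM with DMSO (−1.15, SE 0.12, edgeR adjusted p = 1.6e-07), or 2.22-fold lower. *CCNE1* stood at 7.57 and 7.33 CPM with NT, against 15.9, 13.8 and 13.2 CPM with DMSO (−0.94, SE 0.16, edgeR adjusted p = 5.71e-05). *CDK6* (−0.73, SE 0.11) and *RB1* (−0.67, SE 0.08) were lower as well, and *CCND3* (−0.06, SE 0.12), *CDKN2C* (−0.16, SE 0.09), *CDK2* (−0.20, SE 0.10) and *E2F1* (0.09, SE 0.13) did not pass. *CDK2* passed in a fit of those 5 libraries alone (−0.18, edgeR adjusted p = 0.0183) and without DMSO replicate 3 (−0.26, edgeR adjusted p = 0.0492, 0.0183 to 0.265 over all alternatives). The NT libraries of all 6 called genes lay apart from those of DMSO, but so did those of *CDK2* and *CDKN2C*, which did not pass. The share of all tested genes with libraries apart in this way was not computed.

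The rest of the pathway differed between the controls too. Of 18 tested E2F target genes 16 were lower in NT and 0 higher (median log2 difference −0.87, against 0.04 for all tested genes, of which 31.2% were lower and 34.6% higher), and of 13 genes for activation and turnover of G1 kinases 11 were lower and 0 higher (median −0.68). At an unadjusted p under 0.05 these counts were 16 and 11, against 68.5% of all tested genes in either direction. DESeq2 called 0 higher in either list. *MYC* stood at 116 ± 0.778 CPM with NT (SD, n = 2) and 568 ± 17.8 CPM with DMSO (n = 3), a log2 difference of −2.29 (SE 0.08, edgeR adjusted p = 1.27e-12). *SKP2* differed by −1.32 (SE 0.08) and *CDKN1C* by 3.00 (SE 0.17), at 4.34 CPM with NT and 0.541 CPM with DMSO. Of the 10 transcription factors 4 were higher and 4 lower, and the number higher was 1 without NT replicate 1 and 2 without NT replicate 2 or DMSO replicate 1 or 2. NT and DMSO cells differ in the guide, the solvent and possibly the culture and the day, which cannot be told apart here. Since KSRi and NT were both set against the DMSO libraries, their changes are not independent, and are given side by side only: 0.32 with KSRi and 1.34 with NT for *CDKN1B*, 0.51 and 1.27 for *CCND2*, −0.34 and −1.15 for *CDK4*, −0.49 and −0.73 for *CDK6*, and −0.22 and −0.67 for *RB1*. For the other genes they were 0.31 and −0.16 for *CDKN2C*, 0.37 and 0.09 for *E2F1*, −0.29 and −0.06 for *CCND3*, −0.20 and −0.94 for *CCNE1*, and 0.01 and −0.20 for *CDK2*.

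Genes with the most similar profile were looked up for each of the 10 among 10823 or more others of at least 5 CPM on average. Likeness was the mean absolute difference in log2 CPM over the 14 libraries after each gene was centred on its own mean. *CDK6* was closest to *BLM*, a DNA helicase (0.04), *CDKN2C* to *ZNF213* (0.04), *CDK2* to *RAD54L2* (0.04) and *RB1* to *PAXIP1* (0.04). *CDK4* and *CCNE1* had the same nearest gene, *SPRYD3* (0.06 and 0.05). *CDKN1B* was closest to *ADCYAP1* (0.05), *CCND3* to *CTDSP1* (0.07), *E2F1* to *RHNO1* (0.08) and *CCND2* to *LIMD2* (0.10). The median over all genes was 0.64 for *CDKN1B* and 0.23 for *CDK2*, the widest and the narrowest of the 10. These distances are descriptions over libraries that share their groups, and say nothing on shared control.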

How the data were processed

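Polyadenylated RNA of Jurkat cells was sequenced, and the authors deposited raw counts (whole numbers) for each Ensembl gene and library. The submitters' processing notes name GRCh38, STAR 2.7.11b and DESeq2 1.42.1. The counting program, strand setting and annotation used, not given in the sources used here, bear on overlapping, antisense and near-identical genes.

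The deposited counts went into edgeR 4.0.16 (R 4.3.3), where filterByExpr over 5 groups kept 18963 genes (at least 99.93% of each library's counts), TMM factors were computed, and all 14 libraries shared a fit with a mean for each group, because NT has 2. The quasi-likelihood F test gave each contrast (common biological coefficient of variation 8.6%). SEs were derived from the F statistic. The fit assumes 1 spread for all groups, although replicates spread more with KSRi than with DMSO. No replicate pair agreed within sampling noise (chi-square at least 5.83 a degree of freedom), and each library counted as 1 sample. The procedure was tested on simulated data. Symbols were matched by Ensembl ID in a table of gene names (61369 of 61541 genes), and positions, exon lengths and overlaps from GENCODE 29 (GRCh38).

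The 10 genes, the lists, the ratios and the tests were chosen with earlier results of these data known. Named beside the 10 are *KSR2*, *CCND1*, *CDKN1A*, *CDKN2A*, *CDKN2B*, up to 5 genes a list with the lowest p for KSRi against DMSO and, for each of the 10, the gene of the most similar profile. Some others named with a value (*CDK3*, *E2F2*, *CD79A*, *TSPAN31*) were chosen after their values were seen. Intervals and floors of 3 counts cover counting error or the spread between libraries only.

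Alternatives were RLE factors, no low-count filter, DESeq2 1.42.0, the replicate number as a block, a fit restricted to the groups compared and each library left out in turn. Counts of the further lists under these alternatives were added after seeing the data.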

Additional observations from a re-analysis of the deposited data

How the results depend on the processing

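Over 70 changes of the 10 genes and 840 recomputed values, 786 kept their direction and their side of the threshold, 18 lost a call, 4 gained one and 32 changed sign. Fitting the compared groups alone called 2 genes lower with KSRi, against 4, because *CCND3* (−0.30, edgeR adjusted p = 0.0732) and *RB1* (−0.23, adjusted p = 0.0509) missed the threshold; the cause was not tested. With each library left out the number higher with KSRi ran from 2 to 4 and the number lower from 2 to 4, and for the inhibitor less the guides the number higher ran from 2 to 4 and the number lower from 0 to 2. For each guide, both guides and guide 2 against guide 1 all counts of the 10 genes stayed at 0 under all alternatives run. Sign changes were all in values that had not passed. Other settings turned *CDK2* with KSRi to −0.007 (no low-count filter), *CDK6* with guide 1 to −0.008 (RLE, and DESeq2) and *CDK4* between guides to −0.001 (only the groups compared). With libraries left out, *CDK2* with KSRi ran from −0.086 to 0.086 and *CCNE1* for the inhibitor less the guides from −0.25 to 0.077. *CDK6* ran from −0.064 to 0.069 with guide 1, −0.036 to 0.065 with guide 2, −0.032 to 0.06 with both guides and −0.051 to 0.074 between guides. *RB1* ran from −0.013 to 0.098 with guide 2 and −0.057 to 0.032 with both guides. Between guides *CCND2* ran from −0.204 to 0.003, *CCND3* from −0.02 to 0.081, *CCNE1* from −0.025 to 0.094, *CDK2* from −0.036 to 0.088, *CDK4* from −0.008 to 0.02, *CDKN2C* from −0.076 to 0.015 and *E2F1* from −0.096 to 0.151. With RLE the median of all genes with KSRi was 0.011, against 0.024 with TMM.

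The replicate numbers were not shown to pair the samples: same-numbered KSRi and DMSO libraries had deviations correlated at −0.21 to 0.06 across genes, and guide 2 and guide 1 libraries at −0.06 to 0.08. Same-numbered guide 1 and NT libraries stood at 0.17 to 0.24, and guide 2 and NT libraries at 0 to 0.13. With the replicate number as a block, 4 of the 10 genes were higher and 3 lower with KSRi, since *CCND3* (−0.29, edgeR adjusted p = 0.0517) missed the threshold, and 0 passed with the guides. Over all genes the guide counts depended on the setting: 1 gene for guide 1 became 35 without the low-count filter, 8 with DESeq2, 2 with the block and 5 or 3 without NT replicate 1 or 2. For guide 2, 2 genes became 35, 5 with DESeq2 and 4 without NT replicate 1, and for both guides 3 became 41, 7 with DESeq2 and 1 when replicate 1 or 3 of guide 1, or replicate 1 or 2 of guide 2, was left out. Between guides 1 gene became 13, 2 with DESeq2 and 2 without guide 2 replicate 3. For the inhibitor less the guides 5431 genes became 3366 without NT replicate 1. With 68 to 138 counts a library in the inhibitor experiment, *CCND2* was the gene of the 10 most limited by depth.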
